A study of Mus musculus with 16 samples.

Results

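Pericyte and vascular smooth muscle transcripts were followed in RNA from sorted mouse lung endothelial cells (ECs). The 10 genes, chosen by name, were Pdgfrb, Notch3, Cspg4, Rgs5, Kcnj8, Abcc9, Acta2, Myh11, Vtn and Higd1b, and all 10 were among the 43346 genes of the deposited table. RNA-seq was carried out on 16 libraries in 4 groups: 5 of Young Sham, 4 of Young Bleo, 3 of Aged Sham and 4 of Aged Bleo. The labels give an FVB strain with an age of 2 months for the young groups and 18 months for the aged. Per the study's methods every mouse carried a Col1a1-GFP transgene and both sexes were used. Bleo mice received bleomycin, a drug that injures the lung, into the trachea, Sham mice received PBS, and cells were collected at day 30. The sort kept CD31-positive cells and removed cells positive for CD45 (leukocytes), EpCAM (epithelium) or GFP (cells with an active collagen reporter). No gate in that sort was directed at pericytes or smooth muscle. In the study's plots a library stands for an individual mouse, so the p-values below measure the spread between mice.

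Pericytes and vascular smooth muscle cells, together called mural cells, wrap the outside of blood vessels. Pericytes lie on capillaries and share a basement membrane with the ECs, whereas smooth muscle cells form the contractile coat of arteries and veins. ECs secrete PDGF-B, which binds the receptor encoded by Pdgfrb on mural cells, and they present the Notch ligand Jagged1, which activates the receptor encoded by Notch3. A mural transcript in an EC library may come from mural cells that were carried through the sort or from the ECs themselves. In bulk RNA, fewer cells of a type and less RNA per cell cannot be told apart.

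Promoter windows of 250 bases before to 50 bases after the gene start were read for 7 of the 10 genes (RefSeq, GRCm38.p6). Those of Acta2 and Vtn are shown because the genes stand for the contractile and the pericyte members and both fell in aged injured libraries. Capitals mark the letters TGGGAA (core of the RBPJ motif, the factor of Notch signalling) and CATTCC (core of the TEAD motif), on either strand, so that TTCCCA and GGAATG are their reverse complements. The motifs overlap where the letters TGGGAATG occur.
Acta2 promoter, chr19:34255324-34255623, minus strand: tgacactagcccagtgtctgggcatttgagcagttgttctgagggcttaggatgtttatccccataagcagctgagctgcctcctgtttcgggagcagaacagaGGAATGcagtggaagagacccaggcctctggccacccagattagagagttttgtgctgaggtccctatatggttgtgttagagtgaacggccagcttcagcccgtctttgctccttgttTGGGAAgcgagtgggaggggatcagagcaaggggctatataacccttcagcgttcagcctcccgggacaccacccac
Vtn promoter, chr11:78498870-78499169, plus strand: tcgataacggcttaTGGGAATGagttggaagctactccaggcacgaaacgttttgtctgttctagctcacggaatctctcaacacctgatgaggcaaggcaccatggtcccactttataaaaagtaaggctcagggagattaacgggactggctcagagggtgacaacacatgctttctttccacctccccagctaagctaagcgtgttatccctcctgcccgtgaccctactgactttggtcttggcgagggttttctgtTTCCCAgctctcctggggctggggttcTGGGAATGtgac
TGGGAA was found in 4 of the 7 windows (Abcc9, Acta2, Kcnj8 and Vtn) and in 25.6% of 32851 windows of all genes. CATTCC was found in 3 of the 7 (Abcc9, Acta2 and Vtn) and in 14.7% of all windows. The CArG box, the serum response factor motif, was found in its strict form in 0 of the 7 windows and in 1.63% of all. The strict form is CC, a run of A or T letters, then GG. The Acta2 window holds ccctatatgg and ccttgttTGG, where that run holds another letter, and the latter overlaps the marked TGGGAA. Such near matches were not searched for, so the strict search does not show that the Acta2 window lacks sites of this factor. These matches describe letters only.

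The libraries held 20.9 to 71.0 mega-counts on genes, and 15092 to 17259 genes had at least 10 counts. Levels of endothelial markers were read first. Pecam1 (CD31), the sorting marker, stood at 121 ± 17.2 FPKM in Young Sham (SD, n = 5) and 108 ± 23.2 FPKM in Aged Bleo (SD, n = 4). Because the sort selected on CD31, that level is no independent check of the cell type. The endothelial gene Cdh5, not used in the sort, stood at 103 ± 6.96 FPKM and 86.2 ± 8.28 FPKM in the same groups. FPKM is a level per gene length and library total. The summed level of the 10 mural genes was 36.4 to 85.8 FPKM in Young Sham, against 2604 to 2967 FPKM for 10 endothelial genes. The mural sum in Young Sham was low beside the endothelial sum, but such sums do not measure a share of cells or RNA. A list of 8 epithelial genes summed to 62.1 to 566 FPKM in Young Sham, although the sort removed EpCAM-positive cells. Its surfactant gene Sftpc stood at 155 ± 72.2 FPKM there (SD, n = 5). Several libraries stood apart within their groups for these genes. Young Sham 22 was above its group mean for all 10 genes, and Young Bleo 20 and Aged Bleo 5 for 9. Young Sham 25 and Young Bleo 18 were above theirs for 0, and Aged Sham 14 and Aged Bleo 2 for 1.

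Levels per length in Young Sham differed widely among the 10 genes. Acta2 was the most abundant at 36.8 ± 15.4 FPKM (SD, n = 5). Higd1b followed at 7.45 ± 2.47 FPKM, Pdgfrb at 3.85 ± 2.20 FPKM and Vtn at 3.12 ± 0.935 FPKM. Myh11 (1.19 ± 0.579 FPKM), Notch3 (0.971 ± 0.511 FPKM) and Rgs5 (0.867 ± 0.306 FPKM) had overlapping spreads. Kcnj8 (0.503 ± 0.291 FPKM), Cspg4 (0.373 ± 0.213 FPKM) and Abcc9 (0.0951 ± 0.0549 FPKM) were the lowest.

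Pdgfrb, the PDGF-B receptor that recruits pericytes to vessels, was lower in all other groups than in Young Sham. DESeq2 called the fall in the bleomycin groups only. The gene lies at chr18:61045150-61085061 (mm10) and codes for protein, as all 10 genes do. Its normalized counts (counts divided by a size factor for depth) in Young Sham were 1903, 4027, 2083, 1263 and 1260. They were 217, 236, 242 and 1031 in Young Bleo, 599.5, 181 and 563 in Aged Sham, and 69.8, 25.1, 266 and 467 in Aged Bleo. Every library of the other groups was below every Young Sham library, and Young Bleo 20 was far above the other Young Bleo libraries. The log2 fold change against Young Sham was -2.29 (SE 0.746) in Young Bleo, with a DESeq2 adjusted p of 0.0188. It was -3.35 (SE 0.746) in Aged Bleo, with a DESeq2 adjusted p of 0.000306. In Aged Sham the value was -2.23 (SE 0.812), close to that in Young Bleo, but did not pass (DESeq2 adjusted p = 0.109). A second tool, edgeR's quasi-likelihood test, called Aged Bleo (adjusted p = 0.0178) but not Young Bleo (adjusted p = 0.0565). The Young Bleo call was also lost in DESeq2 without Young Bleo 17, 18 or 19, where the adjusted p reached at most 0.0815.

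Notch3, the Notch receptor of mural cells, was called lower in both bleomycin groups than in Young Sham by both tools. It lies at chr17:32120820-32166880. Normalized counts were 778, 1429, 451, 788 and 483 in Young Sham and 76.2, 76.9, 152 and 222 in Young Bleo. They were 379.7, 106 and 208 in Aged Sham and 59.6, 2.2, 104 and 205 in Aged Bleo. Again no library of the other groups reached the lowest Young Sham library. Aged Bleo 2 held 3 raw counts of Notch3 at a depth of 59.7 mega-counts. The log2 fold change was -2.58 (SE 0.676) in Young Bleo (adjusted p = 0.00231 in DESeq2 and 0.0368 in edgeR). It was -3.08 (SE 0.676) in Aged Bleo (adjusted p = 0.000236 in DESeq2 and 0.0255 in edgeR). In Aged Sham it was -1.77 (SE 0.735) and did not pass (DESeq2 adjusted p = 0.196). A long noncoding gene on the opposite strand overlaps Notch3 with a mean of 15.4 counts, and the strand setting of the counting was not stated.

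Cspg4 encodes NG2, a proteoglycan on the pericyte surface. It lies at chr9:56865104-56899870. Normalized counts were 377, 554, 185, 201 and 188 in Young Sham, 71.0, 72.8, 91.5 and 164 in Young Bleo, 34.0, 5.8 and 92.3 in Aged Sham, and 65.9, 8.1, 79.2 and 10.5 in Aged Bleo. The groups did not overlap with Young Sham, and the spread within each aged group was wide. The change was -2.77 (SE 0.755) in Aged Sham on the log2 scale, called by DESeq2 (adjusted p = 0.0127) but not by edgeR (adjusted p = 0.158). It was -2.88 (SE 0.687) in Aged Bleo, called by both (adjusted p = 0.000896 in DESeq2 and 0.0369 in edgeR). In Young Bleo it was -1.59 (SE 0.684, DESeq2 adjusted p = 0.0968). The Aged Sham call was lost without Aged Sham 13, Aged Sham 14 or Young Sham 22. Leaving out 1 library moved the Aged Sham log2 fold change between -3.97 and -2.24.

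Vtn encodes vitronectin, a matrix and plasma glycoprotein whose transcript is abundant in pericytes of several tissues. It lies at chr11:78499091-78502324. Normalized counts were 683, 879, 552, 696 and 391 in Young Sham and 95.3, 46.8, 109 and 138 in Young Bleo. They were 186, 32.3 and 277 in Aged Sham and 16.5, 0, 37.2 and 56.8 in Aged Bleo. Young Sham stood above all other libraries, and all but 1 Aged Bleo library were below the lowest Young Bleo library. The 0 in Aged Bleo 2 is compatible with up to 3 counts, or 2.21 normalized counts, at that depth (counting error only). Vtn had the strongest fall of the 10 genes in Aged Bleo, with a log2 fold change of -4.54 (SE 0.696) and adjusted p-values of 1.76e-08 in DESeq2 and 0.00556 in edgeR. In Young Bleo it was -2.72 (SE 0.689), with adjusted p-values of 0.00154 in DESeq2 and 0.0309 in edgeR. In Aged Sham it was -1.96 (SE 0.750, DESeq2 adjusted p = 0.141).

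Higd1b, a member of the hypoxia-inducible domain family found in mural cells, gave the lowest adjusted p-values of the set in both bleomycin groups. It lies at chr11:102835849-102838040. Normalized counts were 721, 919, 389.6, 627 and 530 in Young Sham, 152, 73.8, 130 and 97.4 in Young Bleo, 379.7, 103 and 198 in Aged Sham, and 54.1, 57.5, 115 and 159.8 in Aged Bleo. No library of the other groups reached the lowest Young Sham library, although Aged Sham 13 came within 10 normalized counts of it. The log2 fold change was -2.49 (SE 0.404) in Young Bleo (adjusted p = 1.17e-07 in DESeq2 and 0.0032 in edgeR). It was -2.73 (SE 0.403) in Aged Bleo (adjusted p = 4.5e-09 in DESeq2 and 0.0025 in edgeR). In Aged Sham it was -1.50 (SE 0.438), called by DESeq2 (adjusted p = 0.0238) and not by edgeR (adjusted p = 0.138), and the call was lost without Aged Sham 14 or 15 or Young Sham 21 or 22.

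Rgs5, a regulator of G protein signalling and a classical pericyte marker, was lower in both aged groups and not in Young Bleo. It lies at chr1:169655501-169695813. Normalized counts were 458, 553, 239.9, 478 and 265 in Young Sham and 334, 370.2, 435 and 449 in Young Bleo, which lay within the Young Sham range. They were 224, 129 and 94.1 in Aged Sham and 220, 61.9, 107 and 177 in Aged Bleo, below every young library. The log2 fold change was -0.01 (SE 0.364, 95% interval -0.72 to 0.70) in Young Bleo. It was -1.43 (SE 0.402) in Aged Sham, called by DESeq2 (adjusted p = 0.0165) but not by edgeR (adjusted p = 0.117). It was -1.50 (SE 0.366) in Aged Bleo, called by both (adjusted p = 0.00122 in DESeq2 and 0.0259 in edgeR). Between the bleomycin groups, Aged Bleo was lower by a log2 fold change of -1.49 (SE 0.385), again in DESeq2 (adjusted p = 0.0178) and not in edgeR (adjusted p = 0.223). The Aged Sham call was lost without Aged Sham 14, Aged Sham 15 or Young Sham 22, and the call between bleomycin groups without Aged Bleo 2, Aged Bleo 3 or Young Bleo 19.

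Kcnj8 and Abcc9 encode the pore (Kir6.1) and the regulatory subunit (SUR2) of a vascular ATP-sensitive potassium channel, and are neighbours on chromosome 6 (142564939 to 142571356 and 142587862 to 142702274). Neither was called in any comparison of all 16 libraries. Kcnj8 had 31.2, 119, 159.9, 188 and 60.6 normalized counts in Young Sham, 184, 57.2, 139 and 135 in Young Bleo, 108, 42.7 and 271 in Aged Sham, and 56.5, 0.7, 126 and 64.1 in Aged Bleo. The groups overlapped throughout. Its log2 fold change in Aged Bleo was -0.85 with a 95% interval of -2.37 to 0.67, which leaves a fall of the size seen in Rgs5 within the interval. Abcc9 had 51.9, 94.7, 125, 64.3 and 22.5 normalized counts in Young Sham, 12.1, 5.2, 3.3 and 149.9 in Young Bleo, 26.0, 60 and 39.3 in Aged Sham, and 47.8, 22.1, 39.0 and 43.0 in Aged Bleo. All but 1 of the Young Bleo libraries lay below every other library of the series, and Young Bleo 20 lay above every one. Without Young Bleo 20 the log2 fold change of Abcc9 in Young Bleo moved from -0.74 to -3.34, with a DESeq2 adjusted p of 5.05e-06, and Aged Bleo then exceeded Young Bleo by 2.43 (DESeq2 adjusted p = 0.0157). The low libraries held 3 to 14 raw counts of Abcc9.

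Acta2, smooth muscle alpha-actin, and Myh11, smooth muscle myosin heavy chain, belong to the contractile apparatus. Acta2 (chr19:34241090-34255336) had 5111, 9696, 4359, 9754 and 4343 normalized counts in Young Sham and 1752, 2143, 5478 and 3178 in Young Bleo. It had 5757, 3126 and 3211 in Aged Sham and 1419.9, 1913, 1319.8 and 1801 in Aged Bleo. Aged Bleo was below all libraries of both Sham groups, whereas Young Bleo and Aged Sham each overlapped with Young Sham. The log2 fold change against Young Sham was -2.04 (SE 0.344) in Aged Bleo (adjusted p = 4.76e-07 in DESeq2 and 0.00465 in edgeR). In Young Bleo it was -1.08 (SE 0.344), called by DESeq2 (adjusted p = 0.0152) and just missed by edgeR (adjusted p = 0.0558). That call was lost without Young Bleo 17, Young Bleo 18, Young Sham 22 or Young Sham 24. In Aged Sham it was -0.72 (SE 0.375, DESeq2 adjusted p = 0.355). Actin genes are near-identical over much of their coding sequence, and how the counting treated reads that map to several of them was not stated.

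Myh11 (chr16:14194527-14291408) had 701, 1426, 634, 631 and 557 normalized counts in Young Sham and 302, 96.7, 260 and 586 in Young Bleo. It had 549.5, 471 and 478 in Aged Sham and 65.1, 56.8, 199 and 344 in Aged Bleo. The Aged Sham libraries lay close together just below Young Sham, and Aged Bleo lay below both. The log2 fold change was -2.25 (SE 0.510) in Aged Bleo against Young Sham (adjusted p = 0.000406 in DESeq2 and 0.0251 in edgeR). It was -1.34 (SE 0.510) in Young Bleo (DESeq2 adjusted p = 0.0524) and -0.66 (SE 0.555) in Aged Sham (DESeq2 adjusted p = 0.63).

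**Figure D1:**
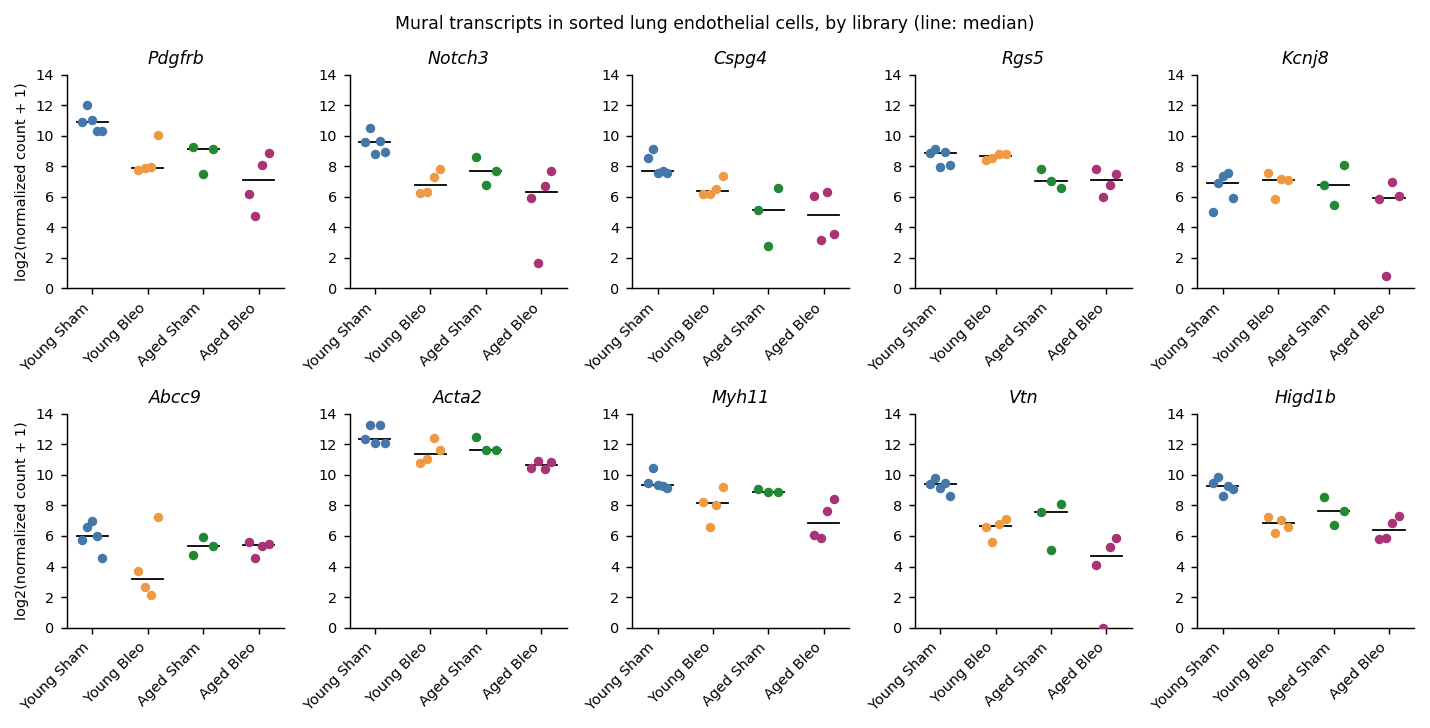
Each panel plots 1 gene as log2(normalized count + 1) in each of the 16 libraries, by group, with a line at the group median. Young Sham lies highest for most genes, Rgs5 separates by age, and 1 Young Bleo library stands high for Pdgfrb and Abcc9.

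Across the 10 genes, a gene was called when its DESeq2 adjusted p was 0.05 or less and it moved by 0.5 or more on the log2 scale. Aged Bleo against Young Sham gave the most calls. These groups differ in both age and treatment, and the comparison cannot tell the parts of each apart. Here 8 of 10 genes were called lower by DESeq2, where 3.14% of the 18515 genes tested were, and the same number by edgeR, where 1.49% of 18324 were. The median log2 fold change of the 10 was -2.49, against 0.02 over all genes. For 8 genes every Aged Bleo library was below every Young Sham library, which held for 4.94% of all genes. Each of the 8 calls held when any 1 library of these groups was left out. None was called higher, against 6.58% of all genes.

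In Young Bleo against Young Sham 5 of 10 were called lower by DESeq2 (6.35% of all genes) and 3 by edgeR (4.09%), namely Notch3, Vtn and Higd1b. The median was -1.47, against 0.01 over all genes, and 5 genes lay wholly below Young Sham (7.17% of all genes did). The number called was 3 without Young Bleo 17 or 18 and 8 without Young Bleo 20, when Cspg4, Abcc9 and Myh11 were added. None was called higher (7.57% of all genes).

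In Aged Sham against Young Sham 3 of 10 were called lower by DESeq2 (1.11% of all genes) and 0 by edgeR (0.164%). At an unadjusted p under 0.05 there were 6 with either tool, against 14.5% of all genes in DESeq2 and 12.7% in edgeR. The median was -1.47, and 7 genes lay wholly below Young Sham (3.78% of all genes did). The number called was 0 without Aged Sham 14 or without Young Sham 22, and 1 without Aged Sham 15. None was called higher (2.24% of all genes). The comparisons with Young Sham share the Young Sham libraries, so their values are not independent of each other.

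**Figure D2:**
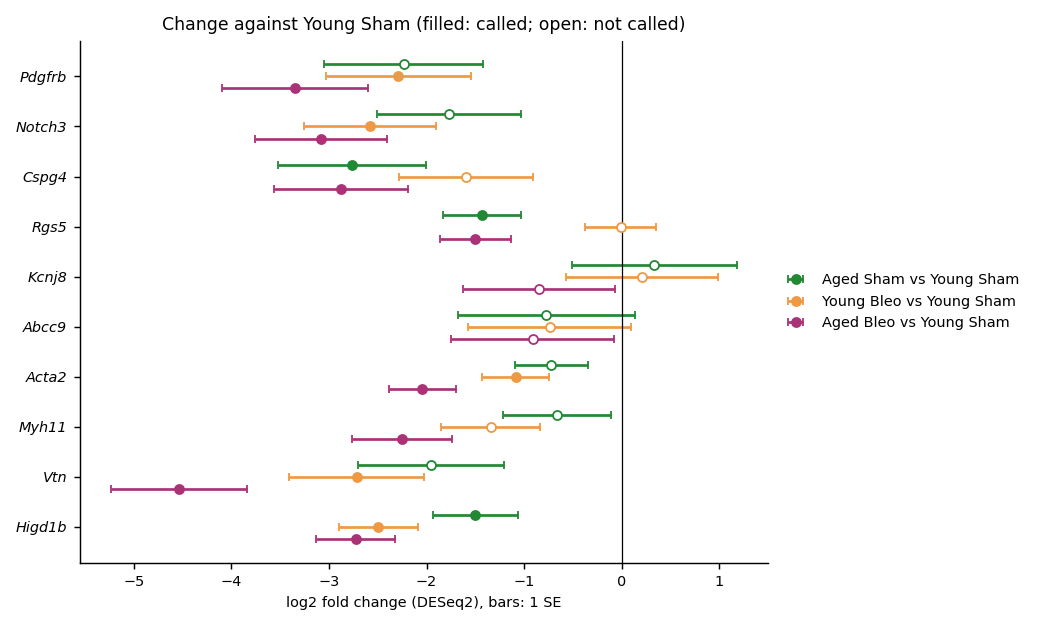
Log2 fold change of each gene against Young Sham from DESeq2, with bars of 1 SE and filled points for called genes. Aged Bleo shows 8 filled points, Young Bleo 5 and Aged Sham 3, and Vtn reaches -4.54 in Aged Bleo.

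Bleomycin within the aged mice and age within the bleomycin mice gave fewer calls. In Aged Bleo against Aged Sham all 10 log2 fold changes were negative (median -1.21), 2 were called lower by DESeq2 (2.44% of all genes) and 0 by edgeR (0.349%), with 4 at an unadjusted p under 0.05 in either tool (19% and 16.3% of all genes). The called genes were Acta2, at -1.32 (SE 0.392, adjusted p = 0.0194 in DESeq2 and 0.0938 in edgeR), and Vtn, at -2.58 (SE 0.792, adjusted p = 0.0256 in DESeq2 and 0.122 in edgeR). For Acta2 and Myh11 every Aged Bleo library was below every Aged Sham library, as it was for 6.14% of all genes. The number called was 0 without Aged Bleo 1 or Aged Sham 13, 1 without Aged Sham 15 and 4 without Aged Bleo 5. None was called higher (3.39% of all genes).

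Between Aged Bleo and Young Bleo, Rgs5 was called by DESeq2 (0.41% of all genes were called lower) and 0 genes by edgeR (0.00546%), with 3 at an unadjusted p under 0.05 in either tool (10.6% and 8.75% of all genes). Rgs5 was lower in every Aged Bleo than in every Young Bleo library, as were 2.27% of all genes, and none of the 10 was called higher (0.616% of all genes). The difference between the bleomycin responses of aged and young mice was tested as an interaction. By DESeq2 0 of 10 genes were called (0.247% of 19440 genes were called lower and 0.134% higher) and 0 by edgeR, with 1 (Higd1b) and 0 at an unadjusted p under 0.05 (8.1% and 7% of all genes). The share of all genes called by edgeR is not given for the interaction, so its 0 has no background here. The interval for Higd1b was wide, at 1.27 on the log2 scale with a 95% interval of 0.07 to 2.47. The test therefore leaves room for differences in either direction in the other 9 genes.

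Part of the 10 genes varied together between mice of the same group. Young Sham 22 was above its group by 0.73 on average on the log2 scale, Young Sham 25 deviated by -0.60 and Young Bleo 18 by -0.72. Aged Bleo 2 deviated from its group by -1.88 on average, and Aged Bleo 5 was higher by 0.92. As a description, the Pearson correlation of log2 normalized counts over the 16 libraries had a median of 0.657 across the 45 gene pairs, with a range of -0.00118 to 0.962. After each group's mean was subtracted the median was 0.46, with 19 of the 45 pairs above 0.5 and 3 negative. No value over all genes was computed, and the libraries share depth and sort, so these correlations carry no test. Within groups Acta2 had the lowest median correlation with the other genes (0.14) and Notch3 the highest (0.715).

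**Figure D3:**
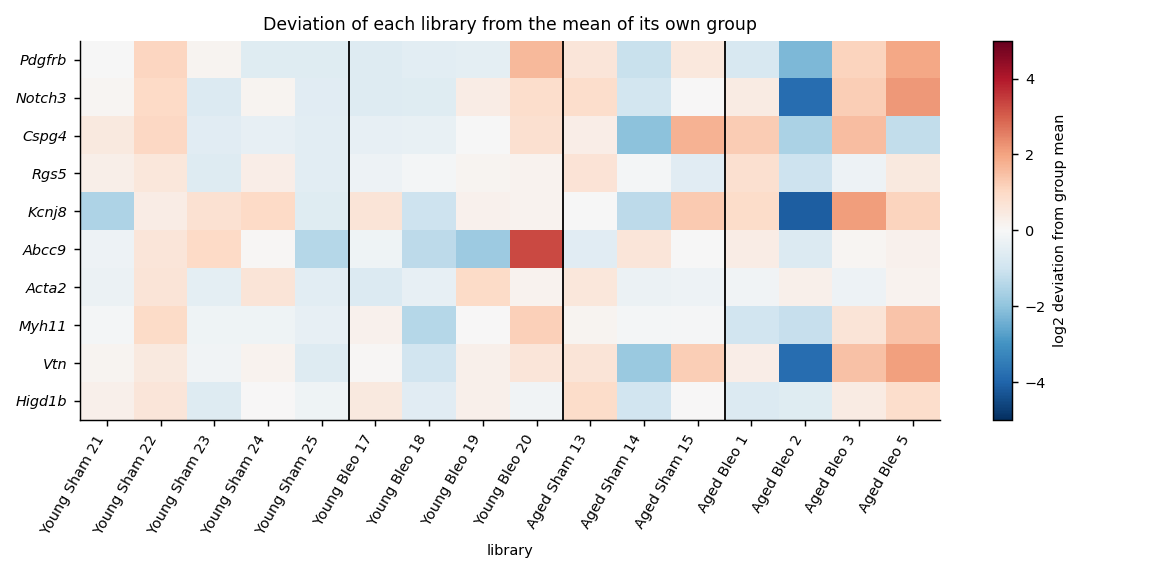
Each cell is the log2 deviation of 1 library (columns, separated by group) from its group mean for 1 gene (rows). Columns tend to have one colour, such as Young Sham 22 above and Aged Bleo 2 below.

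The genes whose levels most resembled each member over the 16 libraries were ranked by Pearson correlation among the 13774 genes whose mean normalized count was 50 or more. For Higd1b the closest was Cox4i2 (r = 0.981), a lung and mural isoform of a cytochrome oxidase subunit. For Vtn the closest were Atp1b2 (r = 0.969), Notch3 (r = 0.962) and Cd248 (r = 0.957). For Acta2 it was Tagln (r = 0.961), the smooth muscle protein transgelin. For Pdgfrb (r = 0.960) and Myh11 (r = 0.945) it was Gucy1a3, an older symbol of Gucy1a1, a subunit of soluble guanylate cyclase. Notch3 was followed after Vtn by the potassium channel gene Kcnk3 (r = 0.955). Rgs5 (Adam19, r = 0.857), Cspg4 (Ackr4, r = 0.890), Kcnj8 (Rcn3, r = 0.878) and Abcc9 (St6gal1, r = 0.900) had weaker closest neighbours. Only Notch3 and Vtn had another of the 10 genes among their closest 3.

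Other mural genes were read from lists that were chosen with earlier results of these data known. Their counts are therefore a description and not independent support. Over all genes tested by DESeq2, 6.35% were called lower and 7.57% higher in Young Bleo, 3.14% and 6.58% in Aged Bleo, and 1.11% and 2.24% in Aged Sham. Of 14 other pericyte genes 9 were called lower in Young Bleo, 8 in Aged Bleo and 3 in Aged Sham, each against Young Sham, and none higher. The median log2 fold changes were -2.13, -2.04 and -0.90. By edgeR the counts were 6, 7 and 1. Among the Aged Bleo libraries the strongest falls were Gucy1a1 (-3.42, DESeq2 adjusted p = 6.07e-09) and the transcription factor Foxs1 (-3.003, adjusted p = 0.0144 in DESeq2 and 0.102 in edgeR). In Young Bleo they were the cation channel Trpc6 (-2.97, adjusted p = 0.0292 in DESeq2 and 0.0592 in edgeR) and Gucy1a1 (-2.88, DESeq2 adjusted p = 1.65e-06). In Aged Sham the called gene with the strongest fall was Postn, periostin (-2.20, adjusted p = 3.55e-06 in DESeq2 and 0.0188 in edgeR), followed by Gucy1a1 (-1.75, adjusted p = 0.0459 in DESeq2 and 0.208 in edgeR).

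Of 14 other contractile genes 7 were called lower in Aged Bleo, 3 in Young Bleo and 0 in Aged Sham against Young Sham, while 1 was called higher in Aged Sham. By edgeR 4 were lower in Aged Bleo, 1 in Young Bleo and 0 in Aged Sham, where 4 of the 14 had an unadjusted p under 0.05 in DESeq2 and 3 in edgeR. In Aged Bleo the strongest were Synpo2 (-2.59, adjusted p = 0.0114 in DESeq2 and 0.0864 in edgeR) and the leiomodin gene Lmod1 (-2.56, DESeq2 adjusted p = 7.08e-07). In Young Bleo they were Synpo2 (-2.59, adjusted p = 0.0084 in DESeq2 and 0.0643 in edgeR) and the desmin gene Des (-1.97, adjusted p = 0.00274 in DESeq2 and 0.0369 in edgeR). Myl9, myosin light chain 9, rose in Aged Sham by 1.82 (adjusted p = 0.0142 in DESeq2 and 0.106 in edgeR), with 9653, 41436 and 10493 normalized counts in libraries 13, 14 and 15. Without Aged Sham 14 it was 0.80 (DESeq2 adjusted p = 0.484). The platelet list moved in the same group, with 3 of 4 genes called higher by DESeq2 and 0 by edgeR. Its summed level was 581 to 3160 FPKM in Aged Sham against 255 to 483 FPKM in Young Sham, and Aged Sham 14 had the highest platelet sum. The part of platelet RNA in the Myl9 result, and in the low mural levels of that library, was not tested. Of 12 genes of smooth muscle and mesenchymal transcription factors, 11 were tested by DESeq2 against Young Sham. Of these, 3 were called lower and 1 higher in Young Bleo. The strongest falls were Tcf21 (-2.29, adjusted p = 0.00142 in DESeq2 and 0.0328 in edgeR), which is also on the fibroblast list, and Tbx2 (-1.70, adjusted p = 0.0043 in DESeq2 and 0.046 in edgeR). Mkl2, a cofactor of serum response factor, was higher (0.86, adjusted p = 0.00248 in DESeq2 and 0.0178 in edgeR), and 1 of the 11 tested is near the 7.57% of all genes. Neither tool called any of them in Aged Bleo or Aged Sham. There 4 and 2 had an unadjusted p under 0.05 in DESeq2, against 22.6% and 14.5% of all genes.

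Pdgfb and Jag1, ligands that ECs present to these receptors, were not called in any comparison. Pdgfb, the ligand of the Pdgfrb receptor, stood at 32.1 ± 7.91 FPKM in Young Sham and 28.3 ± 9.39 FPKM in Aged Bleo (SD, n = 5 and 4), a log2 fold change of -0.17 (SE 0.252) that was not called. Jag1, a Notch3 ligand, had a log2 fold change of 0.21 (SE 0.275) in Aged Bleo and of 0.69 (95% interval 0.15 to 1.23) in Young Bleo, just short of a call (DESeq2 adjusted p = 0.0707). Dll4, another endothelial Notch ligand, fell in Young Bleo by 0.91 (adjusted p = 0.00174 in DESeq2 and 0.0212 in edgeR) and was at -0.60 in Aged Bleo (DESeq2 adjusted p = 0.0758). Heyl, a Notch target in mural cells, fell in Aged Bleo by 3.27 on the log2 scale (SE 0.657), with adjusted p-values of 4.38e-05 in DESeq2 and 0.0183 in edgeR. The other Notch targets on the list took different directions, and they and Dll4 were chosen for naming after their values were seen. Hey1 rose in Aged Bleo by 0.81 (adjusted p = 0.00514 in DESeq2 and 0.0302 in edgeR). Hey2 (0.30), Hes1 (0.0074) and Nrarp (-0.085) were not called there, while Hes1 fell by 0.60 (DESeq2 adjusted p = 0.0161) and Nrarp by 0.72 (DESeq2 adjusted p = 0.00387) in Young Bleo. Of the 16 signalling genes on the list, 5 were called lower and 2 higher in Young Bleo, and 1 lower and 3 higher in Aged Bleo. The 2 higher in Young Bleo and the 1 lower in Aged Bleo are each within 1 gene of the shares over all genes given above. The strongest falls in Young Bleo were S1pr3, a sphingosine-1-phosphate receptor (-3.19, adjusted p = 0.00094 in DESeq2 and 0.0206 in edgeR), and Angpt1, the mural ligand of the endothelial receptor Tie2 (-2.23, adjusted p = 0.00105 in DESeq2 and 0.0291 in edgeR). The highest was Pdgfc, another PDGF ligand, which had 0 counts in all 5 Young Sham libraries, 8.50 to 60.6 normalized counts in Young Bleo (DESeq2 adjusted p = 2.01e-06) and 19.5 to 122 in Aged Bleo (DESeq2 adjusted p = 2.63e-07), with no fold given against 0. Edn1, endothelin-1, rose by 1.55 in Young Bleo (DESeq2 adjusted p = 0.000628) and by 1.85 in Aged Bleo (DESeq2 adjusted p = 3.39e-05).

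Genes of other cell types moved in the same libraries. Of 10 macrophage genes 7 were called higher in Young Bleo and 8 in Aged Bleo, and their summed level was 22.8 to 43.4 FPKM in Young Sham, 152 to 434 in Young Bleo and 208 to 1518 in Aged Bleo. All 5 mesothelial genes were called higher in Young Bleo, and 3 in each of Aged Sham and Aged Bleo, from sums of 0.0954 to 1.53 FPKM in Young Sham to 5.64 to 17.2 FPKM in Young Bleo. Of 10 fibroblast genes 5 were called lower in Aged Bleo, 1 lower in Young Bleo and 2 higher in Aged Sham, and the 1 in Young Bleo is near the 6.35% of all genes called lower there. These list counts are from DESeq2. By edgeR the macrophage counts were 7 and 8, the mesothelial 5, 2 and 2, and the fibroblast 3, 1 and 1, in the same order of groups. The share of all genes called higher by edgeR was 5.69% in Young Bleo, 4.2% in Aged Bleo and 0.699% in Aged Sham, and the share called lower 4.09%, 1.49% and 0.164%. The summed endothelial level was below the 2604 to 2967 FPKM of Young Sham in all other groups. It was 1778 to 2274 FPKM in Young Bleo, 1651 to 2274 FPKM in Aged Bleo and 2306 to 2522 FPKM in Aged Sham. Cldn5, a tight junction gene, carried much of that sum, at 1534 ± 110 FPKM in Young Sham (SD, n = 5), 830.1 ± 153 FPKM in Young Bleo and 857 ± 237 FPKM in Aged Bleo (SD, n = 4 each). The 10 endothelial genes had a median log2 fold change of -0.03 in Young Bleo, where 2 were called higher and 2 lower, and of -0.20 in Aged Bleo, where 1 was called higher and 2 lower. By DESeq2 the lower ones were Cldn5 and Kdr in both. The summed level of the 10 mural genes was 14.7 to 34.3 FPKM in Young Bleo, 18.5 to 34.9 in Aged Sham and 9.79 to 14.8 in Aged Bleo. Acta2 made up 60.1% to 91.6% of that sum in the 16 libraries. The other 9 genes summed to 12.7 to 29.9 FPKM in Young Sham, 2.95 to 7.34 in Young Bleo, 2.79 to 7.51 in Aged Sham and 0.911 to 4.58 in Aged Bleo. The part of these other cell types in the mural results was not tested.

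**Figure D4:**
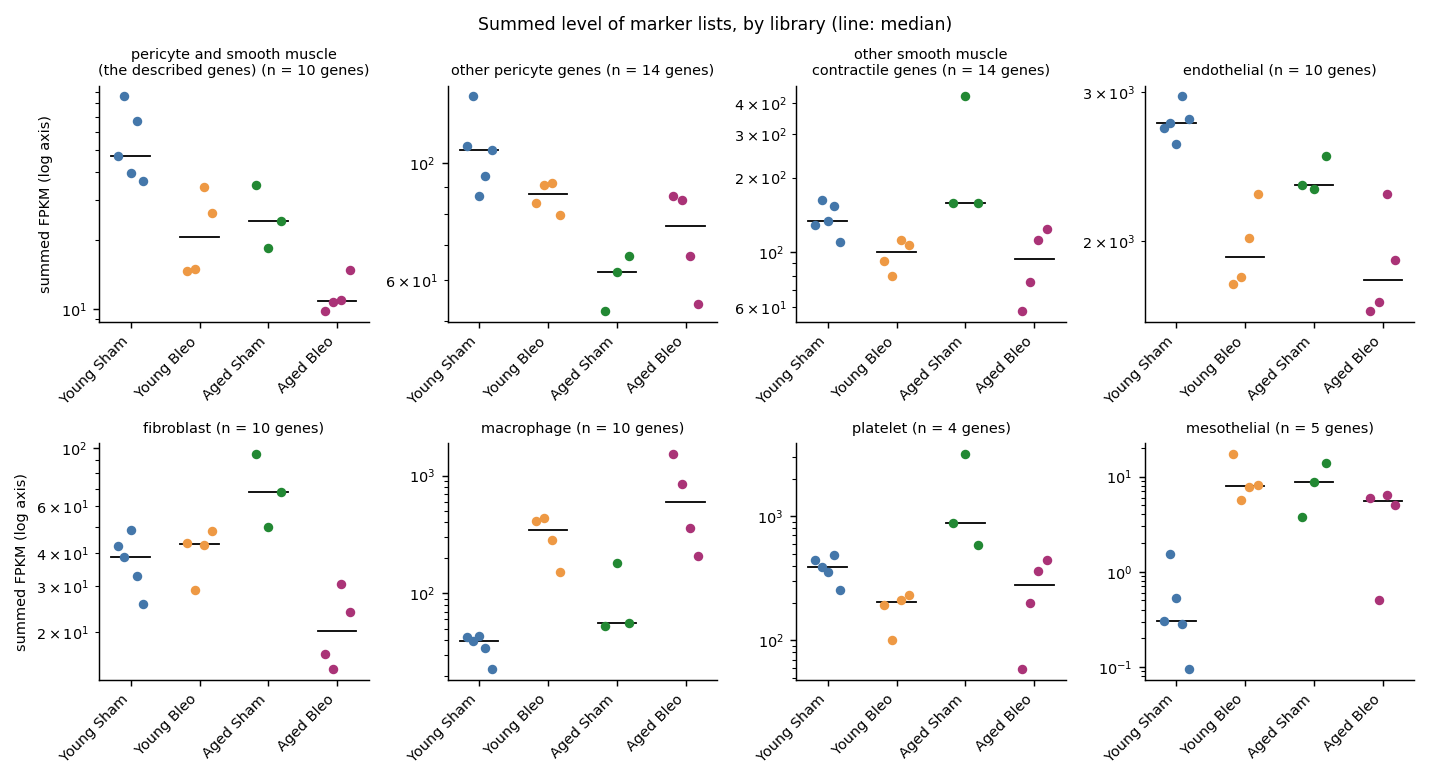
Summed FPKM of each marker list in each library, on log axes that differ between panels, with a line at the group median. The mural genes are highest in Young Sham and lowest in Aged Bleo, while the macrophage sum is above Young Sham in all other groups.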

How the data were processed

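RNA from sorted lung ECs was sequenced in 16 libraries. Per the labels and the study's methods, the authors aligned reads to mm10 with STAR 2.5.2b and counted them per gene with Subread featureCounts. Strandedness of the counting, handling of multi-mapping reads and the gene annotation version are not given in the sources used here, and the library kit differs between labels (SMART-Seq with Nextera) and methods (TruSeq). The deposited count values are raw whole numbers per gene. The deposited FPKM values were made by the authors from counts, gene length and a library total of which the gene counts were 40.3% to 44.7%.

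From the counts, DESeq2 1.42.0 (R 4.3.3) was fitted on all genes and all 16 libraries with group as the only term (Wald test, Benjamini-Hochberg adjustment, threshold 0.05 and absolute log2 fold change of 0.5, after the study's methods). Beside it stand edgeR 4.0.16 (quasi-likelihood) and limma 3.58.1 on log2(FPKM + 0.1) and log2(FPKM + 1). Both count tests were tested on simulated data, on which DESeq2 made more false calls than edgeR, so a call by DESeq2 alone is less firm than one by both. Other alternatives were TMM scaling, filters on low counts, fits on the compared groups alone and leaving out each library of the compared groups. Replicate pairs differed by more than sampling noise (chi-square per degree of freedom 32.8 to 428). In Aged Bleo the value was 106 between libraries 1 and 2 and 83.2 between 3 and 5. Across these pairs it was 305 to 428, so the group held unlike pairs of libraries. The members and lists were chosen with earlier results of these data known. Named were all members, up to 2 called genes per list, comparison and direction with the largest change (shown for the mural lists against Young Sham), Pdgfb, Jag1, Heyl and reference genes, and the 3 genes most like each member.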

Additional observations from a re-analysis of the deposited data

Results flagged for a closer look

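Dixon's test of a single far library was applied to the 10 genes in the 3 groups of 4 or 5 libraries, 30 sets of values in all, of which chance flags about 1 in 20. Pdgfrb in Young Bleo was flagged because library 20, at 1031 normalized counts, lay far above the next at 242 (ratio of gap to range 0.968). Abcc9 in Young Bleo was flagged for the same library, at 150 against 12.1 normalized counts (ratio 0.94). Myh11 in Young Sham was flagged because library 22, at 1426 normalized counts, lay above the next at 701 (ratio 0.835).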

How the results depend on the processing

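The 8 calls in Aged Bleo against Young Sham held in every alternative except that Cspg4 missed the fold threshold on log2(FPKM + 1), where 7 were called. Other counts moved. In Aged Sham against Young Sham 0 genes were called by edgeR and by limma on log2(FPKM + 0.1), 6 with the compared groups alone, and 0 to 3 when 1 library of the compared groups was left out. In Young Bleo against Young Sham edgeR called 3, and leaving out 1 library gave 3 to 8. In Aged Bleo against Aged Sham edgeR and both limma fits called 0, the compared groups alone 1, and leaving out 1 library gave 0 to 4. In Aged Bleo against Young Bleo edgeR and both limma fits called 0, and leaving out 1 library gave 0 to 2. The difference of responses gave 0 to 1, the 1 being Abcc9 without Young Bleo 20. The cause of these shifts was not tested.

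Signs turned for some values that had not been called. On log2(FPKM + 0.1) and log2(FPKM + 1), Rgs5 in Young Bleo against Young Sham became 0.072 and 0.024, Cspg4 in Aged Bleo against Aged Sham 0.0070 and 0.000396, Rgs5 there 0.016 and 0.016, and Myh11 in the difference became 0.12 with the pseudocount of 1. Leaving out 1 library gave -0.57 to 0.77 for Kcnj8 in Aged Sham against Young Sham. In Young Bleo against Young Sham it gave -0.14 to 0.14 for Rgs5 and -0.032 to 0.48 for Kcnj8. In Aged Bleo against Aged Sham it gave -0.66 to 1.09 for Cspg4, -0.36 to 0.34 for Rgs5 and -0.39 to 0.21 for Abcc9. In Aged Bleo against Young Bleo it gave -0.56 to 2.43 for Abcc9. In the difference it gave -0.35 to 0.35 for Rgs5, -0.44 to 0.17 for Acta2, -0.88 to 0.26 for Myh11 and -0.48 to 0.74 for Vtn.

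No paired analysis was possible because the replicate numbers in the labels do not repeat between groups. Group sizes of 3 to 5 and raw counts as low as 0 to 14 in some libraries (Vtn, Kcnj8, Notch3, Cspg4, Abcc9) limit precision for the lowest values.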
